A study of Hippoglossus hippoglossus with 15 samples.

Results

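Low quality embryos of Atlantic halibut were compared with high quality embryos at the 8-cell stage (8CS, 8 hpf), on 3 arrays of each kind. Both kinds came from eggs fertilized in vitro, and the methods sorted batches into low and high quality by their fertilization and hatching success. The comparison asks which transcripts of the early embryo differ between batches that later do poorly or well. Other arrays of the series, 3 for each stage, held high quality embryos at the germ ring stage (GR, 82 hpf), the 10-somite stage (10SS, 142 hpf) and hatching (HT, 340 hpf), and they served here only to choose and describe probes. The sample labels describe eggs of females from a single farm, fertilized with pooled sperm of males from that farm, whereas the methods describe a separate collection with its own females for the comparison of qualities. For that collection the methods state incubation of the eggs in dishes of filtered seawater with penicillin, streptomycin and neomycin for all its batches. They give diets and temperatures that differ from those at the farm. The methods describe high quality 8CS embryos from both places, but the series holds only 3 such arrays, and their place of origin is not settled. If they came from the farm, quality could not be told apart from females, site, diet, temperature and incubation. No genotype was given, every array held RNA of whole embryos, and low quality embryos were measured at 8CS alone. The labels name the samples of a group only by number, so the p-values measure the spread between these samples.

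Total RNA was labelled with Cy3 and hybridized to a custom oligonucleotide array with 10180 probe names. Probes more than 8-fold brighter at HT than in low quality 8CS were left out, because signal of late stages in high quality replicates 1 and 2 could raise them. This rule left 8413 of the 10180 probes, and 1767 were left out. Of the 8413 probes kept, 7459 reached the 20th percentile of signal on at least 1 of the 6 8CS arrays and were tested, while 954 stayed below it. A further 1278 of the probes left out were also in the fit of 8737 probes. A level is the log2 signal of a probe minus the 75th percentile of its array, so a level of 0 lies at that percentile, and a difference is the low quality mean minus the high quality mean. A probe was called where its Benjamini-Hochberg adjusted p from limma was under 0.05 and its difference was at least 2-fold. A probe counted as well above background on an array where the extraction software marked most of its spots so. Between 75.7% and 80.6% of all probes were well above background on the 6 arrays. A level in bulk embryos cannot tell fewer cells with a transcript from less transcript per cell.

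An embryo of 8 cells lives on mRNA that the mother laid down in the oocyte. Its own genome is still silent at this stage in fishes, and maternal mRNA drives the first cell divisions and the synthesis of early proteins. Most of this store is later cleared, and transcripts of the embryo replace it. A level measured at 8CS is therefore, in the main, the amount of a maternal transcript that was stored and has not yet been degraded.

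The array files hold no probe sequences. The qPCR primers that the study designed for 4 of the called probes are therefore shown, since for 3 of these no gene name was available and the primers are the sequence by which each transcript can be followed. The first 3 pairs belong to transcripts that were lower in low quality 8CS and the last pair to one that was higher. Each primer runs from 5′ to 3′, and the 5 capitals mark its 3′ end, from which the polymerase extends.
irf7 forward: actgtcaatgtggTTCCT
irf7 reverse: atcgtagaggctgTTGTG
HH_90988292 forward: tgtatcgtggtgtttccTCTGT
HH_90988292 reverse: attcacatcacttctgggCAAAG
HH_90603123 forward: atggtcactatggagATTGT
HH_90603123 reverse: ctcagttgttagcggATAAG
HH_Contig207 forward: ggagtacagccagattCTATT
HH_Contig207 reverse: ctatgaatgacggatgGAGTT

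Of the 7459 probes kept and tested, 14 were higher and 11 were lower in low quality 8CS. Over all 8737 probes of the fit, 0.16% were called higher and 1.01% lower (1.17% in all), and the 77 lower calls outside the kept probes were all among those left out. The kept probes thus had shares of 0.188% and 0.147%. An unadjusted p under 0.05 was reached by 1950 kept probes, of which 1078 were higher and 872 lower, and this was 26.1% against 31.1% of all probes of the fit. The 3 low quality arrays lay wholly above the 3 high quality arrays for 1590 kept probes and wholly below them for 1032, where 18.3% and 19.8% of all probes of the fit did so. The median difference over the kept probes was 0.04, with quartiles of -0.35 and 0.38. For 4056 kept probes (54.4%) the 95% interval of the difference lay inside a 2-fold change in either direction, against 48.2% of all probes of the fit. This number was 757 with spike-in scaling, 652 under normexp with the backgrounds as deposited, 5709 with outlier backgrounds replaced, and 1824 without high quality replicates 1 and 2.

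**Figure D1:**
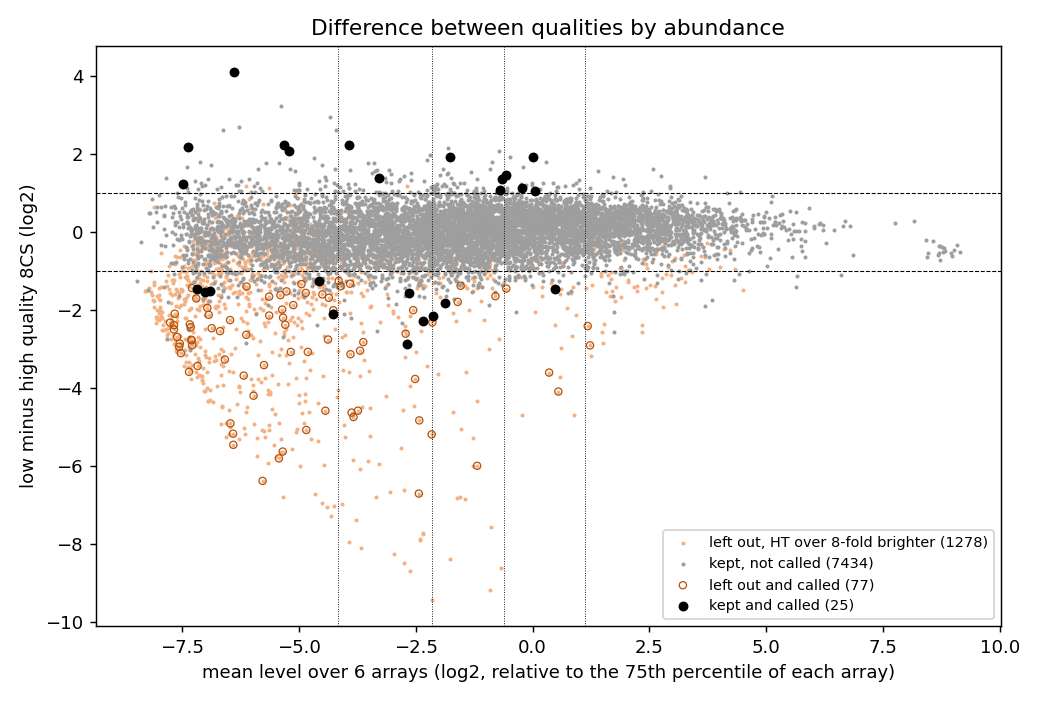
Difference between low and high quality 8CS (vertical axis, log2) against the mean level over the 6 arrays (horizontal axis, log2 relative to the 75th percentile of each array) for the 8737 probes of the fit. Dotted lines part 5 bins of the kept probes by mean level and dashed lines mark a 2-fold change. The 25 called among the kept probes lie on both sides of 0 and outside the brightest bin, and the 77 called among the probes left out all lie below 0.

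Some facts about the arrays bear on every difference below. High quality replicates 1 and 2 and low quality replicate 1 shared slide 1, high quality replicate 3 and low quality replicate 3 shared slide 4, and low quality replicate 2 was on slide 2. The kept probes had median levels of -1.44, -1.45 and -1.29 on the high quality arrays and -1.40, -1.39 and -1.36 on the low quality arrays. The 1278 probes left out and tested had medians of -4.19, -3.98 and -5.05 on the high quality arrays and -6.23, -6.14 and -5.66 on the low quality arrays. High quality replicate 3 was thus nearer to the low quality arrays than replicates 1 and 2 were, and at GR the same probes lay between -4.09 and -3.61. The study's own list of HT transcripts had 52 members among the probes left out, with medians of -7.80, -8.29 and -8.17 on the high quality arrays and -8.78, -9.16 and -8.65 on the low quality arrays. Of the 52, only 9, 12 and 12 were well above background on the high quality arrays and 6, 11 and 13 on the low quality arrays. These medians thus describe signal near background, and their offset does not show a difference in HT transcripts.

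The rule used the low quality arrays themselves, so a probe that is dim in low quality 8CS is more easily left out, and the balance of 14 higher against 11 lower calls depends on it. Other counts of kept probes by direction depend on it too. At an unadjusted p under 0.05 from limma, 5 of the tested probes left out were higher and 764 lower. With no probe left out the counts were 14 higher and 88 lower. A rule that uses no 8CS array, more than 8-fold brighter at HT than at GR, gave 12 higher and 73 lower. A rule of HT against high quality replicate 3 gave 10 higher and 20 lower. All 77 lower calls that were left out had high quality replicate 3 above every low quality array, with a median difference of -2.42 against that replicate alone and -2.62 against replicates 1 and 2. A call requires the high quality arrays to be alike, so this follows in part from the choice of probes. Without high quality replicate 3 in the fit, 589 left-out probes were called lower. At GR the median level of the 77 was 0.27, and 62 of the 77 were at most 8-fold brighter at HT than at GR. The part of late-stage signal in these 77 differences was not tested.

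**Figure D2:**
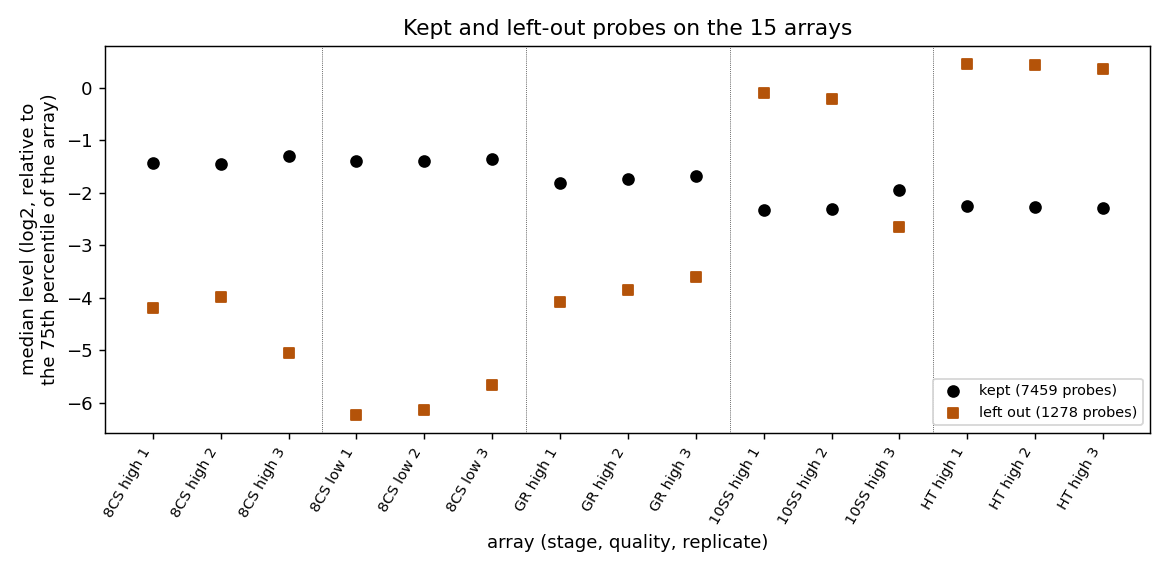
Median level (log2 relative to the 75th percentile of each array) of the kept and the left-out probes in the fit on each of the 15 arrays, by stage, quality and replicate. The kept probes stay between -1.45 and -1.29 on the 6 8CS arrays, whereas the left-out probes run from -6.23 to -3.98 there, with high quality replicates 1 and 2 highest.

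At the threshold of the rule, 3 called probes just inside it were HH_Contig680, HH_90598223 and HH_Contig228, which were 7.93-fold, 7.52-fold and 5.84-fold brighter at HT than in low quality 8CS. The 3 called probes just outside were HH_62388469, HH_Contig773 and HH_Contig1527, at 8.78-fold, 9.42-fold and 12.8-fold. HH_62388469 had levels of -0.73, -0.69 and -0.69 on the high quality arrays and -2.72, -2.60 and -2.15 on the low quality arrays. HH_Contig773 had levels of -4.06, -3.78 and -4.37 on the high quality arrays and -5.80, -5.79 and -5.30 on the low quality arrays. HH_Contig1527 had levels of -3.50, -3.22 and -3.05 on the high quality arrays and -5.41, -5.61 and -4.76 on the low quality arrays. In all 3, high quality replicate 3 stood with the other high quality arrays, which follows in part from their being called.

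Among the 14 probes that were higher in low quality 8CS, HH_Contig2461, a transcript without a name in the tables used, had the largest measured log2 difference, although its bound is below the fold of irf7 given later. Its levels were -8.13, -8.57 and -8.55 on the high quality arrays and -4.49, -3.87 and -4.62 on the low quality arrays. It was not well above background on any high quality array and was so on all low quality arrays, which makes it at least 4.99-fold brighter in low quality 8CS, with a measured difference of 4.09 (SE 0.26, adjusted p = 0.00278). The bound takes the dimmest level that still counts as well above background on each high quality array. A probe this dim on every high quality array may have passed the filter only through the low quality arrays, in which case it had to differ to be kept. The difference was 3.86 within slide 1 and 3.93 within slide 4. At later stages its mean levels were -5.54 at GR, -5.12 at 10SS and -3.54 at HT, above those of high quality 8CS. The 10SS arrays were unlike, with an SD of 2.73. The probe was well above background on 1 of 3 arrays at GR, 2 at 10SS and 3 at HT.

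Other dim probes rose as well. HH_90598223 had levels of -6.27, -6.15 and -6.91 on the high quality arrays and -3.73, -4.44 and -4.44 on the low quality arrays, and its difference was 2.24 (SE 0.30, adjusted p = 0.0334), with 1 of the 3 high quality arrays well above background. HH_90602669 was not well above background on any high quality array and had levels of -8.04, -8.89 and -8.48 on the high quality arrays and -5.96, -6.69 and -6.19 on the low quality arrays, a difference of 2.19 (adjusted p = 0.0334) and at least 1.29-fold by its bound. Its direction held on the processed signal but turned under normexp background correction, another way of removing background, with -0.09 where outlier backgrounds were replaced. HH_90603838 had levels of -8.03, -8.08 and -8.18 on the high quality arrays and -6.90, -6.60 and -7.08 on the low quality arrays, a difference of 1.24 (adjusted p = 0.0405), and was well above background on 1 of the 6 arrays, so no fold is given. Under normexp with the backgrounds as deposited, all 3 of these probes had differences below 0. HH_90602669 and HH_90603838, not well above background on any high quality array, may also have passed the filter only through the low quality arrays.

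The 4 called probes with a gene name were all members of the immune and interferon related list, described below, and 3 of them rose. That list was drawn up with earlier results of these data known, so this membership is not a finding. The study itself files rnf213 under protein degradation and ms4a8a under cell signalling. The transcript of rnf213, which encodes a large ubiquitin ligase that interferon can induce in mammals, had levels of -5.75, -6.92 and -6.08 on the high quality arrays and -4.29, -4.07 and -4.13 on the low quality arrays. Its difference was 2.08 (SE 0.31, adjusted p = 0.0405), a measured 4.23-fold and not a bound. Only 1 of the 3 high quality arrays was well above background. The transcript of pd-1l, the ligand of a receptor that restrains T cells, had levels of -3.21, -2.55 and -2.42 on the high quality arrays and -1.04, -0.77 and -0.63 on the low quality arrays. It was 3.77-fold higher, with a difference of 1.91 (SE 0.26, adjusted p = 0.0342). At GR its mean level was -5.29 and at HT -7.83, below both groups at 8CS. The transcript of ms4a8a, a membrane protein of the MS4A family, had levels of -1.51, -1.34 and -1.10 on the high quality arrays and -0.01, 0.06 and 0.05 on the low quality arrays, and was 2.55-fold higher with a difference of 1.35 (SE 0.17, adjusted p = 0.0292). The 3 low quality arrays lay within a narrow band for both rnf213 and ms4a8a, and none overlapped with a high quality array.

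The fourth named transcript was lower. It encodes irf7, interferon regulatory factor 7, a transcription factor that drives the genes of type I interferon. Its levels were -0.52, -1.70 and -1.55 on the high quality arrays and -4.39, -4.16 and -3.83 on the low quality arrays, and high quality replicate 1 stood above the other high quality arrays. It was 7.29-fold lower in low quality 8CS, with a difference of -2.87 (SE 0.35, adjusted p = 0.0275). The difference was -3.27 within slide 1 and -2.28 within slide 4. Mean levels at the later stages were -2.86 at GR, -4.22 at 10SS and -4.30 at HT. Low quality 8CS thus stood near the level of 10SS and HT, while high quality 8CS stood above GR. Each level is relative to its own array, so like levels at different stages need not be like amounts.

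Among the 11 lower calls, the next after irf7 by size was HH_90988292, with levels of -1.01, -1.18 and -1.38 on the high quality arrays and -3.74, -3.57 and -3.13 on the low quality arrays. It was 4.88-fold lower with a difference of -2.29 (SE 0.22, adjusted p = 0.0134), and the SD over its high quality arrays was 0.19. HH_Contig228 had levels of -0.52, -1.40 and -1.22 on the high quality arrays and -3.13, -3.08 and -3.40 on the low quality arrays and was 4.45-fold lower (difference -2.15, adjusted p = 0.0292). Both transcripts have no name in the tables used. HH_Contig2710 had levels of -2.78, -3.78 and -3.13 on the high quality arrays and -5.40, -5.49 and -5.07 on the low quality arrays and was 4.26-fold lower (difference -2.09, adjusted p = 0.0349). HH_90603123 had levels of -1.01, -0.49 and -1.37 on the high quality arrays and -3.12, -2.55 and -2.67 on the low quality arrays and was 3.54-fold lower (difference -1.82, adjusted p = 0.0439). In all 4 the low quality arrays stood below every high quality array, and HH_Contig228 and HH_90603123 were brighter again at HT, at -0.66 and -0.64.

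HH_90604493 had levels of -1.65, -1.93 and -2.0 on the high quality arrays and -3.62, -3.53 and -3.08 on the low quality arrays and was 2.93-fold lower (difference -1.55, adjusted p = 0.0344). HH_Contig3050 was the brightest of the 11 lower probes, with levels of 1.50, 0.87 and 1.26 on the high quality arrays and -0.10, -0.51 and -0.15 on the low quality arrays, and it was 2.76-fold lower (difference -1.46, adjusted p = 0.0448). Its level at GR was -1.88, below both groups at 8CS. HH_Contig680 was 2.37-fold lower (difference -1.24, adjusted p = 0.0491). The remaining lower probes, HH_193889627, HH_Contig1986 and HH_90604564, fell by 1.54, 1.50 and 1.46 on the log2 scale and were well above background on 2, 1 and 1 high quality arrays and on no low quality array, so no fold is given for them.

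Among the other probes that rose, HH_62388304 had levels of -0.59, -0.93 and -1.34 on the high quality arrays and 1.19, 0.71 and 1.01 on the low quality arrays, and was 3.8-fold higher with a difference of 1.93 (SE 0.25, adjusted p = 0.0292). In high quality embryos its mean levels were 0.98 at GR, near that of low quality 8CS, and 2.86 at 10SS and 2.75 at HT. HH_Contig207 had levels of -5.71, -4.72 and -4.70 on the high quality arrays and -3.02, -2.70 and -2.73 on the low quality arrays. It was a measured 4.67-fold higher (difference 2.22, adjusted p = 0.0349), with 2 of its 3 high quality arrays well above background. HH_90603018 rose 2.77-fold and HH_90596674 2.61-fold, with differences of 1.47 and 1.38 (adjusted p = 0.038 and 0.0391). The smallest rises among the calls were those of HH_90604928, HH_193888457 and HH_90988804, at 1.12, 1.09 and 1.05, each with SDs of at most 0.15 in either group.

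**Figure D3:**
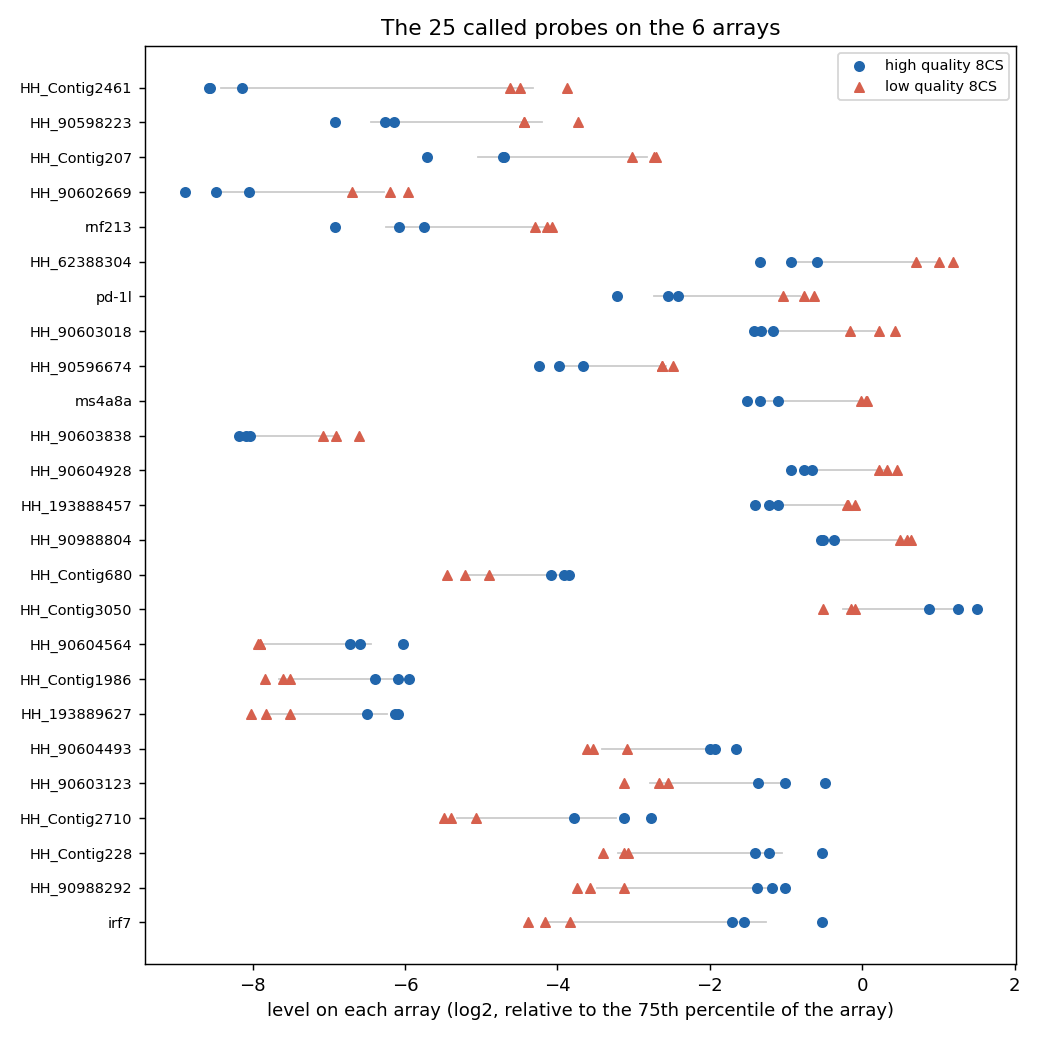
Levels of the 25 called probes (horizontal axis, log2 relative to the 75th percentile of the array) on each of the 3 high quality and 3 low quality 8CS arrays, ordered by difference. Lines join the group means. The groups overlap for none of the 25, the 14 higher probes differ by 1.05 to 4.09 and the 11 lower probes by -2.87 to -1.24.

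All 25 called probes had groups without overlap, which fixes their direction on every slide. Within slide 1 the 14 higher probes differed by 1.01 to 3.86 and within slide 4 by 1.04 to 3.93. The 11 lower probes differed by -3.27 to -1.25 within slide 1 and by -2.28 to -0.82 within slide 4. Against high quality replicate 3 alone the 14 higher probes differed by 1.06 to 4.23 and the 11 lower probes by -2.57 to -1.11. A call requires the 3 high quality arrays to be alike, so these values follow in part from the choice of probes, and without high quality replicates 1 and 2 limma called 0 higher and 0 lower, with 345 and 755 at an unadjusted p under 0.05. Of the 25, 6 passed the filter on low signal through the arrays of 1 group only, 3 of them through the low quality and 3 through the high quality arrays, and such a probe had to differ in order to be kept. With slide as a fixed block limma called 4 higher and 0 lower probes, 2 of them among the 25, while 868 higher and 742 lower probes had an unadjusted p under 0.05.

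At GR, 82 hpf, 13 of the 14 probes that were higher in low quality 8CS had a mean level below that of low quality 8CS, and 7 of the 14 were also below high quality 8CS. Of the 11 lower probes, 10 were below high quality 8CS at GR. The probes were chosen by their 8CS levels, so a GR level below the brighter group follows in part from that choice. The kept probes as a whole also had lower medians at GR, from -1.80 to -1.68, than on the 8CS arrays, from -1.45 to -1.29. At HT, 9 of the 14 higher and 4 of the 11 lower probes were dimmer than in low quality 8CS. The values at HT were used by the rule and are given as a description. At GR, 6 of the 14 and 8 of the 11 were well above background on all 3 arrays, and at HT 11 of the 14 and 10 of the 11 were.

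The calls were spread unevenly over the range of abundance, and how unevenly depended on the settings. In 5 bins of nearly equal size by mean level, from dimmest to brightest, 10, 5, 5, 5 and 0 probes were called, of 1492, 1492, 1491, 1492 and 1492. Over all kept probes 0.188% were called higher and 0.147% lower, and 1.17% of all probes of the fit were called. The brightest bin, with mean levels from 1.12 to 9.14, held no call. An unadjusted p under 0.05 was reached by 340 of its probes (22.8%), against 26.1% of the kept probes and 31.1% of all probes of the fit. Of the 340, 262 were higher and 78 lower. Other settings did call probes of the brightest bin, 2 higher and 0 lower with quantile normalization, 3 and 2 under normexp with outlier backgrounds replaced, 5 and 3 with a variance prior that follows intensity, 4 and 2 with the filter on probes well above background, 4 and 7 with all 15 arrays in the fit, and 552 and 0 with spike-in scaling. Replicates agreed better there, with a median SD of 0.21 against 0.41 in the dimmest bin. Differences of at least 2-fold went from 162 probes in the dimmest bin to 110, 100, 60 and 46 in the following ones. The 95% interval lay inside a 2-fold change for 37.1% of the dimmest bin and for 49.9%, 55.6%, 59.2% and 70.04% of the next ones. These shares hold for 75th percentile scaling. With spike-in scaling, where the median difference of the brightest bin was 0.92, only 757 of all kept probes had an interval inside a 2-fold change.

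The direction of the uncalled differences moved with abundance and with the scaling. The median differences of the 5 bins were -0.13, -0.08, 0.04, 0.17 and 0.16 from dimmest to brightest, but 0.38, 0.18, 0.14, 0.17 and 0.15 under quantile normalization, which turns the sign of the 2 dimmest bins. Under normexp background correction with outlier backgrounds replaced they were -0.33, -0.18, -0.01, 0.15 and 0.17. Scaling to the spike-in probes added 0.76 to the median of all probes in the fit, and the bins then lay at 0.63, 0.68, 0.80, 0.93 and 0.92. The 2 brightest bins were therefore higher in low quality 8CS under each of these 4 scalings, by less than 0.20 except with the spike-in probes. In the dimmest bin 100 higher and 200 lower probes had an unadjusted p under 0.05, but 416 and 28 under quantile normalization, whereas in the brightest these counts were 262 and 78, and 292 and 115.

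**Figure D4:**
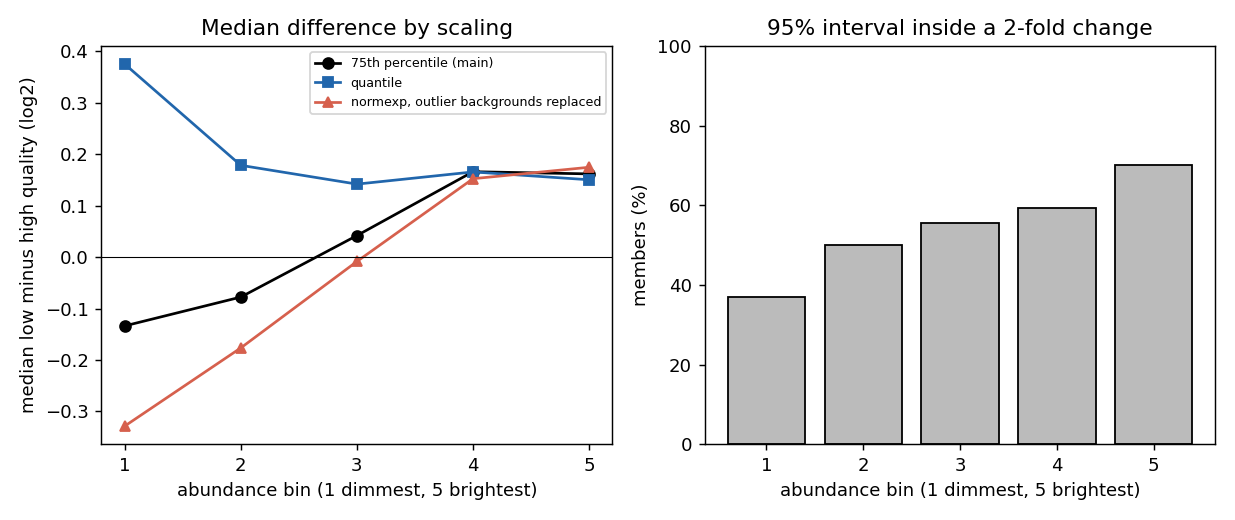
Left, median difference between low and high quality 8CS (log2) in each of 5 bins by mean level under 3 settings (75th percentile scaling, quantile normalization, and normexp with outlier backgrounds replaced). Right, share of the kept probes (%) whose 95% interval lies inside a 2-fold change. The 2 dimmest bins change sign between scalings, from -0.33 to 0.38 in the first, while the 2 brightest stay between 0.15 and 0.17, and the share inside 2-fold goes from 37.1% to 70.04%.

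Slides 1 and 4 share no array, so their differences between qualities could be set side by side. Over the 7459 kept probes the 2 within-slide differences correlated at r = 0.61 (across probes, which are not independent) and 74.9% had the same sign. The correlation was 0.39 in the dimmest bin, 0.63 and 0.70 in the next ones, and 0.73 in the 2 brightest bins. The points share the scaling of each array. The median differences were 0.06 within slide 1 and -0.06 within slide 4.

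The brightest named transcripts were not called. Linker histone h1m, the histone that packs chromatin in eggs, had levels of 6.61, 6.74 and 6.28 on the high quality arrays and 6.97, 6.75 and 6.75 on the low quality arrays, a difference of 0.28 with a 95% interval of -0.18 to 0.73. Claudin 4, a protein of tight junctions, had levels of 6.27, 6.12 and 6.01 on the high quality arrays and 6.26, 6.17 and 6.49 on the low quality arrays, a difference of 0.18 (interval -0.24 to 0.59). Both intervals lay inside a 2-fold change.

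The transcript of p450 oxidoreductase, which passes electrons to cytochromes P450, had a difference of 0.15 (interval -0.40 to 0.69). B-cell translocation gene 3, an antiproliferative protein that binds the deadenylase of mRNA, had a difference of 0.03 (interval -0.37 to 0.43), with levels of 5.73, 5.53 and 5.45 on the high quality arrays and 5.60, 5.48 and 5.71 on the low quality arrays. Light chain 3c of the microtubule-associated proteins, a protein of autophagosomes, had a difference of -0.18 (interval -0.63 to 0.27). Importin alpha, the adaptor of nuclear import, had a difference of 0.62 (interval 0.01 to 1.23), so that a rise of over 2-fold lay within its interval. The direction of b-cell translocation gene 3 turned under quantile normalization, and that of light chain 3c turned with spike-in scaling.

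The named transcripts with the narrowest intervals covered several functions. Core 1 beta-galactosyltransferase, an enzyme of mucin-type glycosylation, had levels of -1.13, -1.0 and -1.02 on the high quality arrays and -0.94, -1.03 and -1.13 on the low quality arrays and a difference of 0.01 (interval -0.36 to 0.38). The epsilon subunit of the coatomer, the coat of Golgi vesicles, differed by 0.10 (interval -0.29 to 0.48). Retinoblastoma binding protein 6 differed by 0.22 (interval -0.15 to 0.60), a general transcription factor polypeptide by 0.36 (interval -0.02 to 0.74) and unc-84 homolog a, a protein of the nuclear envelope, by 0.33 (interval -0.05 to 0.72). Tartrate-resistant acid phosphatase type 5 was lower on all 3 low quality arrays, with a difference of -0.62 (interval -1.0 to -0.25, adjusted p = 0.0854), and was not called. Of the 146 named transcripts among the kept and tested probes, 74 had an interval inside a 2-fold change and 4 were called.

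In lists of maternal gene functions drawn up with earlier results of these data known, calls were few. The immune and interferon related list, with 11 members, held 3 higher and 1 lower, where 0.16% and 1.01% of all probes of the fit were called, and its median difference was 1.35, against 0.04 over all kept probes. Of its members, 8 lay wholly above and 1 wholly below the high quality arrays, against 18.3% and 19.8% of all probes of the fit. Of the 11, 7 were transcripts that the study had picked out as different between qualities in these samples, the 4 called ones among them, so the list is not independent evidence of a direction.

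Of the 7 members of the immune list that were not called, 4 differed by more than 2-fold. The transcript of mhc2a, the alpha chain of class II antigen presentation, had levels of -8.25, -7.83 and -7.69 on the high quality arrays and -4.53, -4.83 and -6.58 on the low quality arrays, with low quality replicate 3 nearest to the high quality arrays. It was not well above background on any high quality array, and its bound is at least 2.52-fold, with a measured difference of 2.61 (adjusted p = 0.0744). The transcript of psmb9, the inducible proteasome subunit that cuts peptides for class I presentation, had levels of -3.52, -3.0 and -3.0 on the high quality arrays and -1.27, -1.75 and -0.59 on the low quality arrays and a difference of 1.97 (adjusted p = 0.0535).

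The transcript of mhc1a, the class I alpha chain, had a difference of 1.34 (adjusted p = 0.0624) and levels of -5.44, -5.15 and -4.66 on the high quality arrays and -3.67, -3.62 and -3.93 on the low quality arrays. Interferon-inducible protein 56 had a difference of 1.60 (adjusted p = 0.0681) and lipopolysaccharide-induced tnf factor one of 0.63 (adjusted p = 0.125). Tank-binding kinase 1, which activates interferon regulatory factors, differed by -0.80 (adjusted p = 0.151) and interleukin-7, a cytokine of lymphocytes, by -0.73 (adjusted p = 0.176). The low and high quality arrays did not overlap for mhc2a, psmb9, mhc1a, interferon-inducible protein 56 and the tnf factor, and they overlapped for the other two. The sign for interleukin-7 turned with spike-in scaling and in the deposited table of log2 values. Under normexp as deposited, those for rnf213, mhc2a and mhc1a turned too.

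No member of the other 7 lists was called by limma, of 60 tested, where 1.17% of all probes of the fit were called, so that a count of 0 is near the background. An unadjusted p under 0.05 was reached by 21 of the 60, against 31.1% of all probes of the fit. The list of RNA binding, translation and decay, 10 members, had a median difference of -0.31. Its extremes were the eef1a2 binding protein, with levels of -2.76, -4.07 and -3.44 on the high quality arrays and -5.69, -5.31 and -6.41 on the low quality arrays and a difference of -2.38 (adjusted p = 0.0591), and a subunit of ribonuclease P, an enzyme of tRNA maturation, at 0.88 (adjusted p = 0.0624). The list of cell division, spindle and chromatin, 12 members, had a median of -0.30 and ran from -1.10 for nuclear autoantigenic sperm protein, a histone chaperone, to 0.62 for importin alpha. Nuclear autoantigenic sperm protein had levels of 0.43, 0.07 and 0.25 on the high quality arrays and -0.80, -0.56 and -1.19 on the low quality arrays (adjusted p = 0.0717).

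The list of transport and metabolism, 13 members, had the lowest median at -0.53, with 10 differences below 0. It ran from cyp2n, a cytochrome P450, with levels of -3.67, -3.58 and -3.80 on the high quality arrays and -4.96, -4.80 and -5.67 on the low quality arrays and a difference of -1.46 (adjusted p = 0.0611), to the urea transporter at 0.48 (interval -0.40 to 1.35). The signal transduction list, 8 members, had a median of 0.08. Its extremes were son of sevenless homolog 2, an activator of Ras, at -1.15 (adjusted p = 0.0806) and a G protein alpha subunit of the transducin kind at 1.16 (adjusted p = 0.0721).

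The 10 transcription and zinc finger proteins had a median of -0.11, and 9 of their intervals lay inside a 2-fold change. They ran from a zinc finger protein (HH_193890034) at -1.16 (adjusted p = 0.0893) to tripartite motif-containing 66 at 0.46 (adjusted p = 0.201). The 4 glycosyltransferases had a median of -0.19, from beta-n-acetyl-galactosaminyl transferase 3 at -0.50 to fucosyltransferase 9 at 0.26. The 3 egg envelope and membrane glycoproteins had a median of -0.15, with all 3 intervals inside a 2-fold change, from zymogen granule membrane glycoprotein 2 at -0.30 to claudin 4 at 0.18. With spike-in scaling, which adds 0.76 to the median of all probes, zymogen granule membrane glycoprotein 2 and transferase 3 had positive differences.

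**Figure D5:**
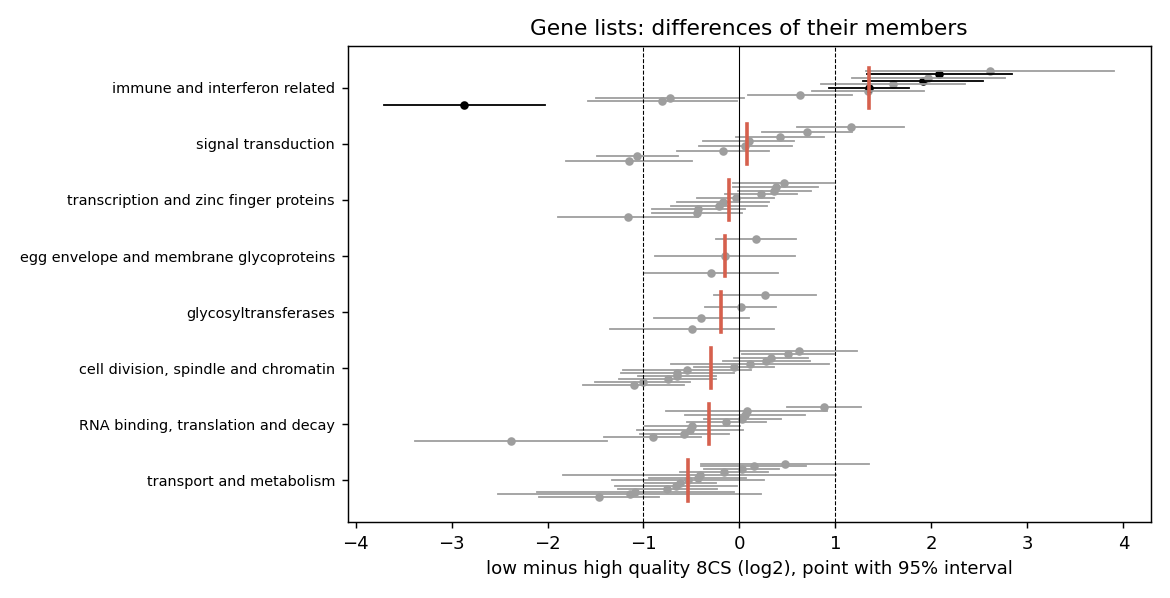
Difference between low and high quality 8CS (horizontal axis, log2) of each tested member of the 8 gene lists, as points with 95% intervals from limma, with called members in black and the median of each list as a coloured bar. The immune and interferon related list has the highest median (1.35) and holds the 4 called members, 3 of them above and 1 below 0, and the other medians lie between -0.53 and 0.08.

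The study's list of transcripts found at 8CS alone, which may have been chosen on the same high quality 8CS arrays, had 160 members among the kept probes, and all were tested. Of these, 1 was higher (pd-1l) and none lower, where 0.16% and 1.01% of all probes of the fit were called. Their median difference was 0.03. Their intervals lay inside a 2-fold change for 93 of the 160, and the groups did not overlap upwards for 40 and downwards for 29, where 18.3% and 19.8% of all probes of the fit did not, so these counts lie near the background. After the eef1a2 binding protein, the lowest was HH_Contig2859 at -1.71 (adjusted p = 0.0764). The copies used here of the study's lists for GR, 10SS and HT held 42, 44 and 58 probes, which is not every transcript of those lists. Among the kept probes 37, 26 and 6 of them were tested, with median differences of -0.27, 0.04 and -0.03, and none of their members was called by limma. Over all probes of the fit 1.17% were called, so no call among so few probes is near the background. An unadjusted p under 0.05 was reached by 15, 6 and 1 of the 37, 26 and 6, against 31.1% of all probes of the fit.

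Of the 20 transcripts that the study set out as different between qualities, 19 were among the kept probes and tested, and 4 were called higher and 3 lower. They were chosen on these samples, so their directions are no independent evidence. The remaining 1, HH_90596347, was left out by the rule and lay below the filter on low signal. Those not called and not yet described were HH_193889799 at -1.65, a microtubule-associated protein homolog (HH_90607090) at -1.01, HH_166851124 at -1.0, HH_90606468 at -1.17, HH_Contig436 at 0.90, HH_90602035 at 1.49 and HH_90599790 at 1.52, with adjusted p from 0.0615 to 0.0946 and no overlap between the groups. HH_193889799 was abundant, with levels of 2.66, 2.47 and 2.49 on the high quality arrays and 0.28, 1.06 and 1.35 on the low quality arrays, and its level at HT was -7.44.

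The calls changed with the arrays in the fit. Leaving out 1 array at a time gave between 1 and 76 higher and between 0 and 43 lower calls among the kept probes, and of the 25 calls 24 held without high quality replicate 3, whereas 1 or 2 held without any other array except low quality replicate 3, where 5 held.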

How the data were processed

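RNA of whole Atlantic halibut embryos was hybridized on 15 arrays, 1 for each sample, to a custom 1-colour Agilent array with 43803 probe spots for 10180 probe names. Per the methods, total RNA was amplified and labelled with Cy3, and scans were read with Feature Extraction. The deposited files give version 10.7.1.1 in their headers, whereas the submitters' processing notes and the methods name 7.2. The intensity values used were the processed signals as deposited, which are background-subtracted spot brightness with no scaling between arrays. The deposited series table of log2 values, which the authors made in GeneSpring by a 75th percentile shift with the median of all samples as baseline, served as an alternative only. Local backgrounds reached 88529 on high quality replicate 3 and 16192 on low quality replicate 1, which bears on the normexp alternatives. No spot was saturated on the 6 8CS arrays, and with 3 arrays a group the precision is low.

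Control and outlier spots were left out. Spots of the same probe were averaged on the log2 scale after subtracting the 75th percentile of the array. A probe entered if it was not under the 20th percentile of signal on every one of the 6 8CS arrays, and the 8737 such probes were fitted with limma 3.58.1 in R 4.3.3 (lmFit, eBayes, 3 arrays against 3, no covariate), with Benjamini-Hochberg adjustment over all of them. Every p, SE and 95% interval comes from this fit unless another is named. A fold with 1 group not well above background is a bound. It is set against the lowest signal of probes well above background on each array or the dim probe's own level, whichever was higher. For rnf213 and HH_Contig207 the dim probe's own levels were used throughout, so the fold given is the measured one and not a bound. In simulated data with 200 changed probes among 8737, 58.5%, 70.5% and 89.5% of changes of 1.5, 2 and 3 on the log2 scale were called. The simulation used independent normal errors, no slides and no change in the other probes. The shares therefore check the fit and do not give the power of this comparison.

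The members, gene lists and tests were chosen with earlier results of these data known. Named were the study's transcripts for quality, the 3 largest calls in each direction per abundance bin, every called probe with a gene name, the extremes of each gene list, the 6 brightest named transcripts, the 6 with the narrowest intervals, and the called probes nearest to the 8-fold rule. The other 3 calls and the other members of the immune list were added for completeness. Gene names are those that the study gives for its probes. Alternatives covered background correction, scaling, filters, spot summary, slide, replicate number, samples in the fit, the variance prior, the rule for late-stage probes and leaving out arrays.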

Additional observations from a re-analysis of the deposited data

How the results depend on the processing

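Among the kept probes, 14 were called higher and 11 lower. With all 15 arrays in the fit the counts were 57 and 65, with quantile normalization 39 and 4, with the series table of log2 values 38 and 5, with a variance prior that follows intensity 35 and 18, and with a filter on probes well above background 38 and 26. Normexp as deposited gave 0 and 0 in limma, with 78 and 31 at an unadjusted p under 0.05. Slide as a fixed block gave 4 and 0, and as a random block 21 and 15. With the replicate number as a block 1 and 0 were called, with 806 and 881 at an unadjusted p under 0.05. The numbers gave no sign of pairing the samples. The deviations of same-numbered arrays from their group means correlated at -0.05, -0.15 and -0.11, and those of differently numbered arrays at -0.10 to 0.16. Correlations this weak, over so few arrays, cannot settle whether the samples are paired. Spike-in scaling gave 2215 higher and 8 lower. Higher calls were thus 99.6% of the calls with spike-in scaling, 90.7% with quantile normalization and 88.4% with the series table, against 56%. Of the 25 calls, 18 were shared with each of these 3. Of the kept probes, 4056 had an interval inside a 2-fold change, against 757 with spike-in scaling, 652 under normexp as deposited and 1824 without high quality replicates 1 and 2. Without high quality replicates 1 and 2 together, with the lone high quality array taken to vary like the low quality ones, 0 and 0 were called, with 345 and 755 at an unadjusted p under 0.05. Leaving out each array in turn gave 1 to 76 higher and 0 to 43 lower.

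The rule for late-stage probes moved the lower calls, to 88 with no probe left out, 7 with a 4-fold rule, 15 with a 16-fold rule, 73 with HT against GR, 20 with HT against high quality replicate 3 and 7 on unscaled signal. A rule on spike-in scaled signal, chosen after seeing the data, gave 6 lower.

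Signs turned only in the following of 73 named differences. Under normexp as deposited the differences were HH_38317730 -0.30, HH_90598492 -0.087, HH_Contig2306 -0.11, HH_90598223 -0.18, HH_90602669 -0.51, HH_90988418 0.054, HH_Contig3007 -0.15, HH_90602956 -0.067 and HH_90603838 -0.54. Under normexp with outlier backgrounds replaced they were HH_90602669 -0.092, HH_Contig3007 -0.015 and HH_90603838 -0.18. Under spike-in scaling they were HH_90599482 0.26, HH_Contig989 0.46, HH_90988418 0.58, HH_193890101 0.14 and HH_Contig1753 0.034, and in the series table HH_Contig1753 0.084. HH_Contig2894 was at -0.0037 under quantile normalization and HH_Contig3007 at -0.012 with the median over spots and -0.019 without high quality replicates 1 and 2 together. Leaving out each array in turn gave -0.029 to 0.11 for HH_Contig2894, -0.037 to 0.061 for HH_Contig3007 and -0.012 to 0.29 for HH_Contig3018. The causes were not tested. The average per oligonucleotide name was not run, because each such name has 1 spot.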

Other observations

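Among the kept probes, 21 differed by at least 2 on the log2 scale without being called, 7 of them higher and 14 lower. The groups did not overlap for 13 of the 21, where 18.3% of all probes of the fit lay wholly above and 19.8% wholly below. The 21 were picked for large differences, which makes groups without overlap more likely. The following were chosen after their values were seen. HH_Contig162, on the study's HT list, had levels of -5.81, -5.97 and -5.66 on the high quality arrays and -1.26, -1.32 and -6.01 on the low quality arrays, a difference of 2.95 (adjusted p = 0.163). Low quality replicates 1 and 2 stood far above the other 4 arrays. HH_62387986 had levels of -8.15, -7.86 and -4.98 on the high quality arrays and -5.11, -3.63 and -2.58 on the low quality arrays, a difference of 3.23 (adjusted p = 0.102), and high quality replicate 3 lay among the low quality arrays.

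Single arrays stood apart in other transcripts. HH_90988653, an abundant transcript without a name in the tables used, had levels of 2.86, 2.89 and 2.55 on the high quality arrays and 2.71, 2.76 and -3.34 on the low quality arrays, and low quality replicate 3 alone was low. HH_90607085 had levels of -4.39, -5.32 and -4.36 on the high quality arrays and -8.83, -9.08 and -4.73 on the low quality arrays, and low quality replicate 3 stood with the high quality arrays. In HH_90601766, HH_Contig1367 and HH_38317626 high quality replicates 1 and 2 stood above all other 8CS arrays. HH_90601766 had levels of -4.77, -4.19 and -8.49 on the high quality arrays and -8.41, -9.20 and -8.92 on the low quality arrays, and its mean at HT was -7.01. HH_Contig1367 and HH_38317626 had HT means of -7.69 and -7.04, below high quality replicates 1 and 2 at 8CS. At GR the mean of HH_38317626 was -4.59, above its levels of -5.13 and -4.75 on those replicates. The GR means of HH_90601766 and HH_Contig1367 were -7.56 and -7.77, below those replicates.

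The 19 kept probes with a mean level of at least 8, the most abundant of the array, had differences from -0.71 to 0.30 with a median of -0.48, and 18 of them were below 0. Most of the 19 moved together across the arrays, so the 18 are not separate observations. None was called by limma, 3 had an unadjusted p under 0.05 and the lowest adjusted p was 0.133. Under quantile normalization their differences ran from -0.23 to 0.27 and with spike-in scaling from 0.05 to 1.06, so their direction depends on the scaling.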
